A study of Mus musculus with 8 samples.

Results

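The output neurons of the retina are the retinal ganglion cells (RGCs), and 10 genes that are widely used to mark them are described here in adult retinae of WT and quadruple KO mice. The genes are Rbpms, Rbpms2, Pou4f1, Pou4f2, Pou4f3, Sncg, Nefl, Nefm, Nefh and Thy1. They were chosen by name with earlier results of these data known, so counts over them are descriptions. All 10 were found among the 18058 genes of the deposited table and passed the filter on low values. In the quadruple KO mice the extracellular matrix genes Bcan, Ncan, Tnc and Tnr are knocked out in the whole animal. These mice came from crosses of the single KO lines, whereas the WT mice belonged to the inbred background strain 129S2/SvPasCrl. Total RNA from pooled retinae of 4 WT and 4 quadruple KO mice was sequenced, with the libraries named A to D within each genotype (WT A to WT D, KO A to KO D). Mice of both sexes were used in the study, and the sex behind each library is not given in the sources used here.

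RGCs collect the signals of bipolar and amacrine cells in the inner plexiform layer and send them through the optic nerve to the brain. They are a small fraction of the retinal cells, so their genes reach a whole-retina library diluted by the RNA of the much more numerous rods. Rbpms and Rbpms2 are paralogous RNA-binding proteins and label nearly the whole RGC population. The 3 Pou4f genes (also called Brn3a, Brn3b and Brn3c) code for transcription factors that specify RGCs and are found in overlapping subsets of them. Sncg codes for gamma-synuclein. Nefl, Nefm and Nefh code for the light, medium and heavy subunits of the neurofilament, the intermediate filament of large axons, and Thy1 codes for a surface glycoprotein anchored in the neuronal membrane. Neurofilaments and Thy1 are also found in other retinal neurons, such as horizontal and amacrine cells, and are less specific than the RNA-binding proteins and the transcription factors. In bulk samples, fewer RGCs and less RNA per RGC cannot be told apart.

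Values are normalized counts, that is estimated read counts divided by the normalization factors of each library. The estimated depth was 24.1 M to 39.8 M reads in WT and 38.7 M to 52.7 M in the quadruple KO. Among the WT libraries WT B and WT C stood apart, with 19.3% and 14.8% of their counts in RNA of the signal recognition particle as against 6.82% to 8.69% in the other 6 libraries, and fold changes are therefore also given against WT A and WT D alone for the 10 genes. The genotype labels were checked on the targeted genes. Ncan was at no more than 0.853 normalized counts in each quadruple KO library, Bcan at 11.5 to 22.1 and Tnr at 2374 to 2580, all below the 4 WT libraries, while Tnc overlapped between the genotypes and therefore does not check the labels at the level of the whole gene.

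As a group, most of the 10 RGC genes had lower levels in the quadruple KO, but the differences were small and none passed the test over all genes (limma with Benjamini-Hochberg adjustment over 17636 genes, adjusted p from 0.253 for Rbpms2 to 0.95 for Nefm). Over all genes, 77 were called at an adjusted p under 0.05 (0.437%). At an unadjusted limma p under 0.05, Rbpms, Rbpms2, Sncg, Nefl and Nefh were lower, 5 of the 10 genes, against 7.28% of all genes tested that were lower at this threshold. None of the 10 was higher at this threshold, compared with 9.29% of all genes, and 8 of the 10 log2 fold changes were below 0, compared with 50% of all genes. The number of genes lower at this threshold was 3 without KO A and 3 without WT C, with Rbpms, Rbpms2 and Nefl remaining in both fits. In Rbpms, Rbpms2, Sncg and Nefl all 4 quadruple KO libraries lay below all 4 WT libraries, which held for 3.58% of the genes tested. The median log2 fold change of the 10 genes was -0.22 in the fit of all 8 libraries and -0.23 against WT A and WT D, whereas the median of all genes was -0.00018 and 0.011.

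**Figure D1:**
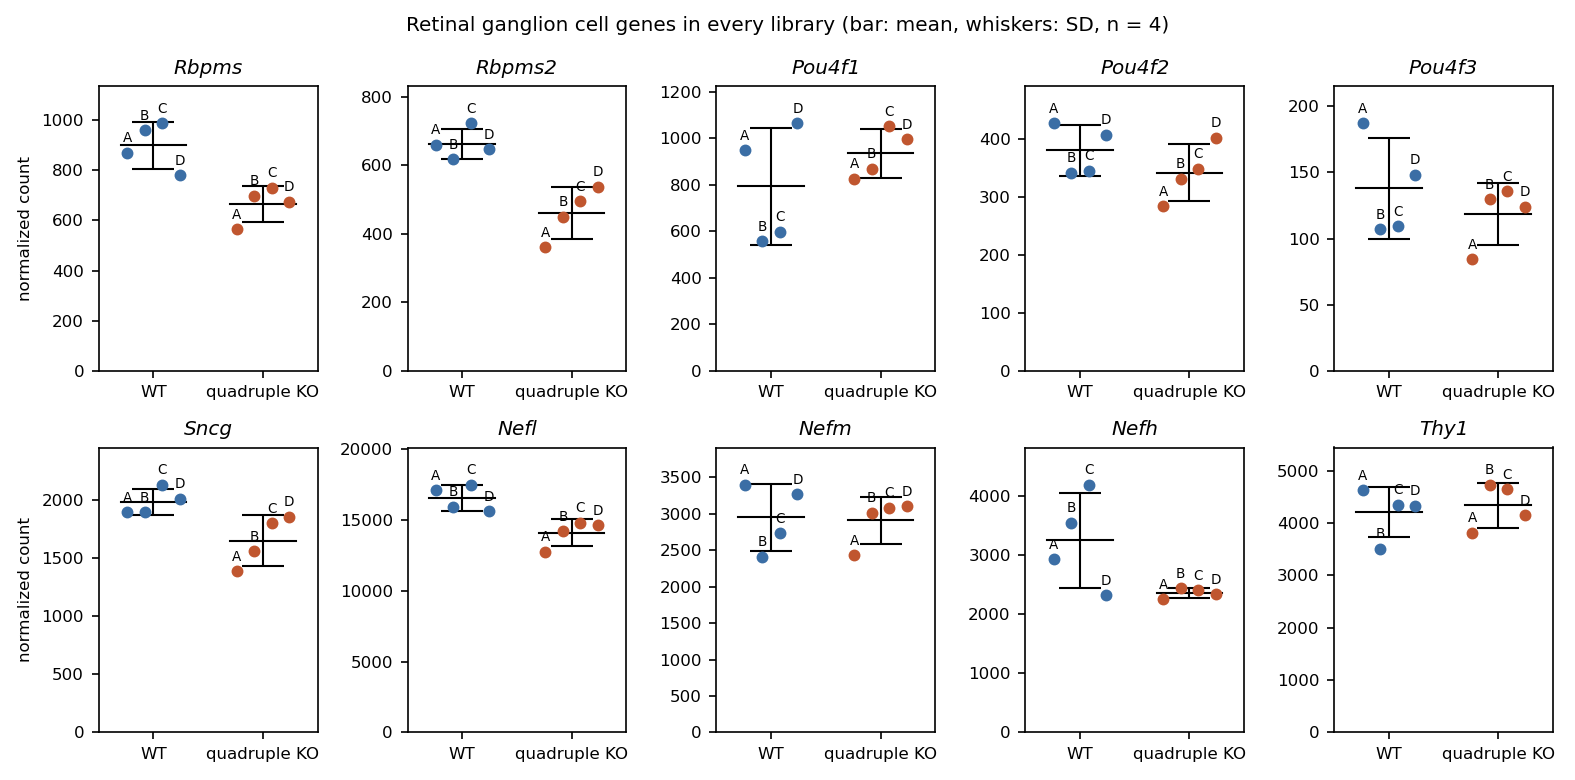
Normalized counts (y axis, linear from 0, own scale per gene) of the 10 RGC genes in the WT (blue) and quadruple KO (orange) libraries, each point 1 library with its letter, the bar the mean and the whiskers the SD (n = 4). The genotypes do not overlap in Rbpms, Rbpms2, Sncg and Nefl, and KO A is the lowest quadruple KO point in all 10 genes.

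Of the genes of RNA-binding proteins, Rbpms2 (ENSMUSG00000032387.16, GRCm39 chromosome 9 from 65536351 to 65567819, plus strand) had the lowest fold change of the 10 genes. Its normalized counts were 660, 618, 723 and 648 in WT A to WT D, and 361, 450, 496 and 537 in KO A to KO D. The lowest WT library, WT B, thus lay above the highest quadruple KO library, KO D, and WT B and WT C did not stand apart from WT A and WT D. The mean level in the quadruple KO was 69.6% of that in WT (log2 fold change -0.53, 95% interval -0.82 to -0.25, limma adjusted p = 0.253). Against WT A and WT D alone it was 70.5% (log2 fold change -0.52, 95% interval -0.84 to -0.20, limma adjusted p = 0.258). The spread was wider in the quadruple KO than in WT, with a coefficient of variation of 16.4% against 6.67%, and KO A was the lowest library. Without KO A the log2 fold change was -0.42 (limma adjusted p = 0.437). The study itself reported Rbpms2 as downregulated in the quadruple KO, at a DESeq2 adjusted p under 0.05. That call came from a different method on these same libraries, and the reason for the difference was not tested.

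Rbpms (ENSMUSG00000031586.18, chromosome 8 from 34272116 to 34420037, minus strand) is the paralog of Rbpms2 and the more common antigen for counting RGCs. It had 870, 960, 987 and 781 normalized counts in WT A to WT D, and 565, 698, 730 and 674 in KO A to KO D. Here too the genotypes did not overlap, although WT D at 781 and KO C at 730 were close, and WT B and WT C were the highest libraries. The mean was 74.1% of WT (log2 fold change -0.43, 95% interval -0.68 to -0.18, limma adjusted p = 0.297). The gene's end overlaps Gtf2e2 on the opposite strand, with a mean of 697 normalized counts. When WT B and WT C were left aside, the mean of Rbpms was 80.8% of WT (log2 fold change -0.31, 95% interval -0.55 to -0.07). For each of Rbpms, Rbpms2, Sncg and Nefl, a two-sided exact permutation test of the mean normalized counts gave p = 0.0286, the smallest value that 4 libraries against 4 allow, and 2 libraries against 4 cannot go below 0.133.

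The Pou4f transcription factors depended on which WT libraries were taken. Pou4f1 (ENSMUSG00000048349.10, chromosome 14 from 104699112 to 104705504, minus strand), which codes for Brn3a, had 949, 559, 599 and 1065 normalized counts in WT A to WT D, and 827, 870, 1051 and 996 in KO A to KO D. WT B and WT C were the 2 lowest of the 8 libraries, and their mean was 57.5% of that of WT A and WT D. Over all libraries the log2 fold change was 0.29 (95% interval -0.18 to 0.76, limma adjusted p = 0.419), and against WT A and WT D it was -0.11 (95% interval -0.35 to 0.13). The quadruple KO libraries lay inside the range of the WT libraries.

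Pou4f2 (ENSMUSG00000031688.5, chromosome 8 from 79159638 to 79163278, minus strand) codes for Brn3b, which acts early in the differentiation of RGCs. It had 427, 341, 345 and 407 normalized counts in WT A to WT D, and 284, 332, 349 and 402 in KO A to KO D. All 4 quadruple KO libraries lay below WT A and WT D, though KO D by only 407 against 402, while KO C and KO D lay above WT B and WT C. The log2 fold change was -0.16 over all libraries (95% interval -0.45 to 0.13) and -0.30 against WT A and WT D (95% interval -0.59 to -0.01, limma adjusted p = 0.425). Without KO A the former was -0.07.

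Pou4f3 (ENSMUSG00000024497.5, chromosome 18 from 42527433 to 42530354, plus strand), which codes for Brn3c and is best known from hair cells of the inner ear, was the least abundant of the 10 genes, with an estimated 61.0 to 192 reads per library. It had 187, 107, 109 and 148 normalized counts in WT A to WT D, and 84.6, 130, 136 and 124 in KO A to KO D. As with the other Pou4f genes, WT B and WT C lay below WT A and WT D, and the genotypes overlapped only through them. The log2 fold change was -0.20 (95% interval -0.70 to 0.30) over all libraries and -0.51 against WT A and WT D (95% interval -0.98 to -0.05, limma adjusted p = 0.388). Without KO A, the lowest library, the fold change over all libraries was -0.05.

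Sncg (ENSMUSG00000023064.5, chromosome 14 from 34092231 to 34100539, minus strand) is enriched in RGCs among the retinal neurons. Its normalized counts were 1891, 1892, 2130 and 2010 in WT A to WT D, and 1385, 1560, 1799 and 1855 in KO A to KO D. The highest quadruple KO library, KO D, lay just below WT A, and KO A and KO B were clearly apart from WT. The mean level was 83.3% of WT (log2 fold change -0.27, 95% interval -0.50 to -0.04, limma adjusted p = 0.301), and against WT A and WT D the log2 fold change was -0.25 (95% interval -0.50 to 0.00). Without KO A it was -0.19, no longer at an unadjusted limma p under 0.05.

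Nefl (ENSMUSG00000022055.8, chromosome 14 from 68321268 to 68326544, plus strand), the light neurofilament subunit on which the filament is built, had the highest level of the 10 genes. It had 17100, 15914, 17480 and 15589 normalized counts in WT A to WT D, and 12746, 14183, 14807 and 14638 in KO A to KO D. The genotypes did not overlap, and the spread within each was the smallest in WT of the 10 genes, with a coefficient of variation of 5.52%. The mean level was 85.3% of WT (log2 fold change -0.23, 95% interval -0.40 to -0.06, limma adjusted p = 0.301). Against WT A and WT D it was 86.2% (log2 fold change -0.21, 95% interval -0.37 to -0.06).

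Nefm (ENSMUSG00000022054.12, chromosome 14 from 68320039 to 68362305, minus strand), the medium subunit, had 3399, 2412, 2733 and 3265 normalized counts in WT A to WT D, and 2434, 3013, 3080 and 3107 in KO A to KO D. Without KO A, the quadruple KO libraries fell between the low pair of WT B and WT C and the high pair of WT A and WT D. The log2 fold change was -0.01 (95% interval -0.30 to 0.27) over all libraries, changed its sign with the libraries used (0.07 without KO A), and was -0.20 against WT A and WT D (95% interval -0.42 to 0.01). In the annotation the gene spans Nefl on the opposite strand, and although the library kit was directional, that is, it keeps the strand of the RNA, whether strand was used in counting is not given in the sources used here. If it was not, reads of the far more abundant Nefl could have entered its value.

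Nefh (ENSMUSG00000020396.9, chromosome 11 from 4888740 to 4898130, minus strand), the heavy subunit of mature large-calibre axons, had 2929, 3546, 4186 and 2320 normalized counts in WT A to WT D, and 2250, 2440, 2406 and 2331 in KO A to KO D. Its quadruple KO libraries were the most uniform of all 10 genes, with a coefficient of variation of 3.58%, and WT D lay within their range. The log2 fold change of -0.43 (95% interval -0.79 to -0.07, limma adjusted p = 0.301) was larger with WT B and WT C than without them, and was -0.15 against WT A and WT D (95% interval -0.34 to 0.05). Nefh overlaps Ap1b1 on the opposite strand, which had a mean of 9691 normalized counts, so the same limit on shared reads holds.

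The proportions of the neurofilament subunits separated WT B and WT C rather than the genotypes. In normalized counts, Nefl exceeded Nefm 6.60-fold in WT B and 6.39-fold in WT C, but only 4.71- to 5.24-fold in the other 6 libraries. The ratio of Nefm to Nefh was 0.653 and 0.680 in WT C and WT B and lay between 1.08 and 1.41 in the others. These are ratios of normalized counts and not of molecules.

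Thy1 (ENSMUSG00000032011.6, chromosome 9 from 43954332 to 43959880, plus strand), long used as an RGC marker in reporter mice, had 4624, 3510, 4351 and 4332 normalized counts in WT A to WT D, and 3813, 4730, 4638 and 4151 in KO A to KO D. The genotypes overlapped throughout, with a quadruple KO library, KO B, as the highest and a WT library, WT B, as the lowest of the 8. The log2 fold change was 0.05 (95% interval -0.19 to 0.28) over all libraries and -0.05 against WT A and WT D (95% interval -0.25 to 0.14). The intervals of Rbpms2 and Thy1 were apart over all libraries but overlapped against WT A and WT D. The difference between these genes was not tested.

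**Figure D2:**
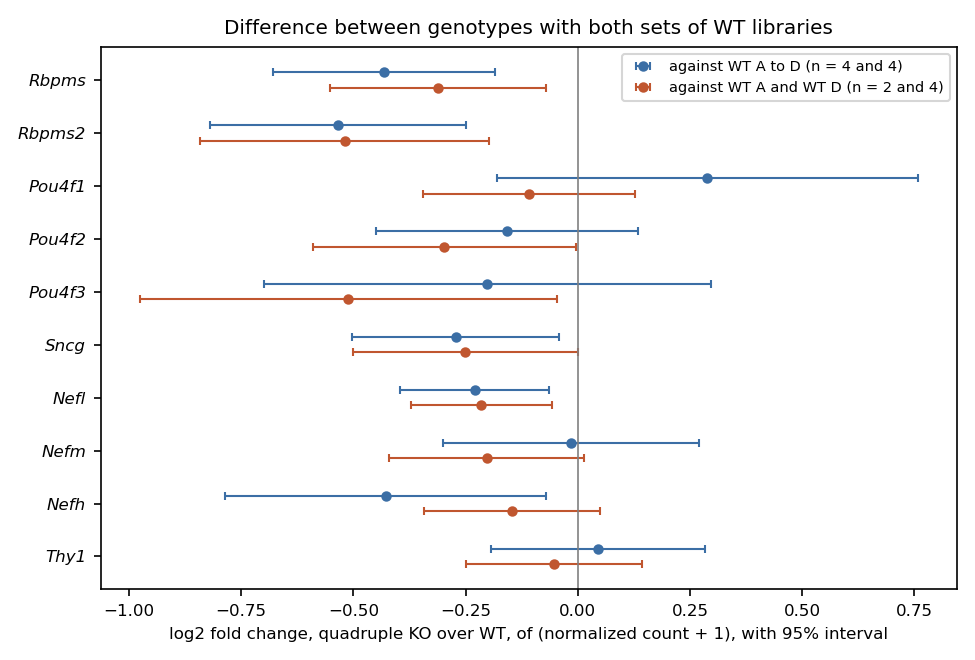
Log2 fold change of quadruple KO over WT (x axis, on log2 of the normalized count plus 1) with the 95% interval from limma for each RGC gene, against all 4 WT libraries (blue) and against WT A and WT D alone (orange). Rbpms2 and Nefl keep their place in both, Nefh moves from -0.43 to -0.15, and Pou4f1 and Thy1 change sign.

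Against WT A and WT D alone, all 10 log2 fold changes were below 0, from -0.52 in Rbpms2 to -0.05 in Thy1, as were 46.5% of all genes tested. In Rbpms, Rbpms2, Pou4f2, Pou4f3, Sncg, Nefl and Nefm, 7 of the 10 genes, all 4 quadruple KO libraries lay below both WT libraries, which was the case for 9.7% of the genes tested. An unadjusted limma p under 0.05 was reached by 5 of the 10, all lower (5.79% of the genes tested were lower at this threshold), and none of the 10 was among the 93 genes called (0.527%). These 5 were Rbpms, Rbpms2, Pou4f2, Pou4f3 and Nefl. The comparison shares its quadruple KO libraries and 2 WT libraries with that of all 8 and is not a second experiment. With WT D as the only WT library only 1 of the 10 had a limma p under 0.05, a fit in which the lone library was assumed to vary like the others.

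Within the quadruple KO, the 10 RGC genes shared their lowest library but not their highest. The highest was KO D in Rbpms2, KO C in Rbpms and KO B in Thy1, for example. KO A was the lowest of the 4 quadruple KO libraries in all 10 genes, compared with 26.3% of all genes tested, and the lowest of all 8 libraries in 7 of the 10, compared with 7.9%. Of 24 further RGC genes, KO A was the lowest quadruple KO library in 14 and the lowest of all in 8, and of 20 genes of RGC subtypes in 8 and 3. In KO A the log2 level deviated from the mean over the 8 libraries by -0.60 in Rbpms2, -0.56 in Pou4f3, -0.45 in Rbpms and -0.16 in Thy1, as the plot of deviations shows. KO A also had the highest Mbp, which codes for a myelin protein and marks oligodendrocytes of the optic nerve. Mbp was at 1247 normalized counts in KO A, against 790 to 879 in the other quadruple KO libraries and 709 to 869 in WT. Gfap, an intermediate filament of astrocytes and reactive Mueller glia, was at 814 in KO A and 313 to 429 in KO B to KO D. In WT A to WT D Gfap was at 746, 399, 688 and 675, so KO B to KO D lay below WT A, WT C and WT D. The part of these values in the low RGC genes of KO A was not tested. Without KO A, 7 of the 10 log2 fold changes against all WT libraries were below 0, with a median of -0.13.

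In Rbpms and Nefh, each of WT B and WT C exceeded WT A and WT D, and in Pou4f1, Pou4f2, Pou4f3 and Nefm each was below them. Of all genes tested, 35.1% had the former order and 35.8% the latter, so the 10 genes were near the background in this respect. The mean of WT B and WT C ranged from 57.5% of that of WT A and WT D in Pou4f1 to 147% in Nefh, and was 102% in Nefl, 103% in Rbpms2 and 103% in Sncg.

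**Figure D3:**
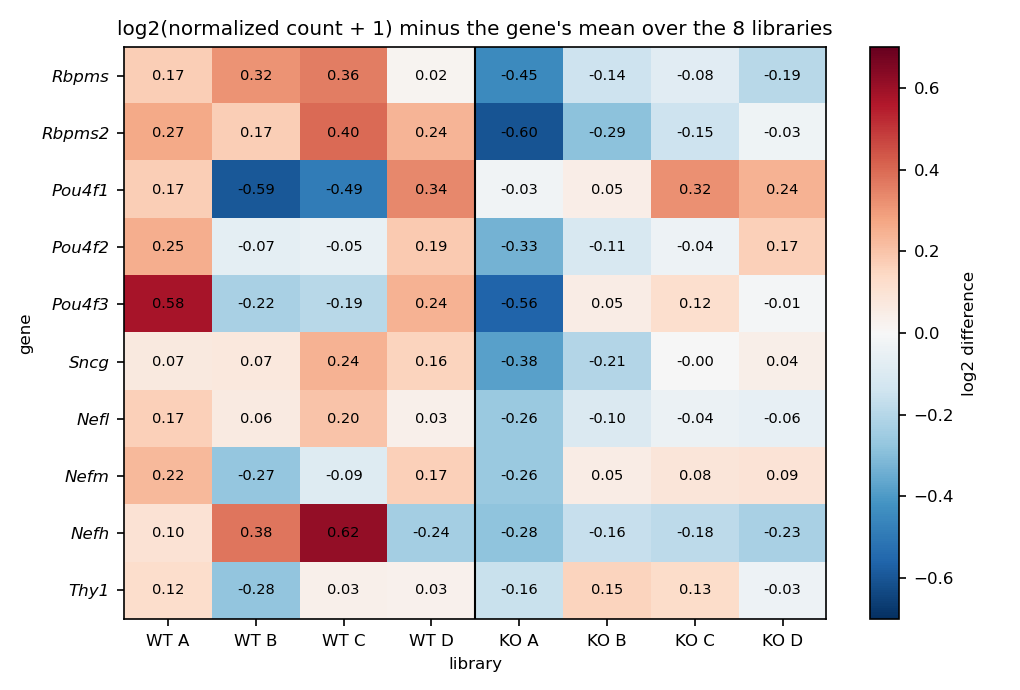
Deviation of each library (columns, WT left and quadruple KO right of the line) from the gene's own mean over the 8 libraries, as the difference of log2(normalized count + 1), for the 10 RGC genes (rows), red above and blue below the mean. The column of KO A is below 0 in every row, from -0.60 in Rbpms2 to -0.03 in Pou4f1, and WT B and WT C are low in the Pou4f genes and high in Nefh.

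The ratio of Rbpms2 to another gene within a library does not depend on the scaling of that library. Of the 9 ratios, 6 were lower in every quadruple KO library than in every WT library, namely those to Pou4f1, Pou4f2, Sncg, Nefl, Nefm and Thy1. Rbpms2 alone already separated the genotypes, and its ratio to the other 17635 genes tested was lower in this way for 47.4% of them. The log2 ratio of Rbpms2 to Sncg was -1.52, -1.62, -1.56 and -1.63 in WT A to WT D, and -1.94, -1.79, -1.86 and -1.79 in KO A to KO D, with WT B and WT C among the other WT values and a gap between the genotypes. The log2 ratio to Thy1 averaged -2.66 ± 0.14 over the WT and -3.24 ± 0.21 over the quadruple KO libraries (SD, n = 4 per genotype). For Pou4f1 the mean log2 ratio differed by -0.82 between the genotypes, the largest difference, and for Rbpms by -0.10, the smallest. The ratios to Rbpms, Pou4f3 and Nefh overlapped between the genotypes. These ratios were not tested.

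**Figure D4:**
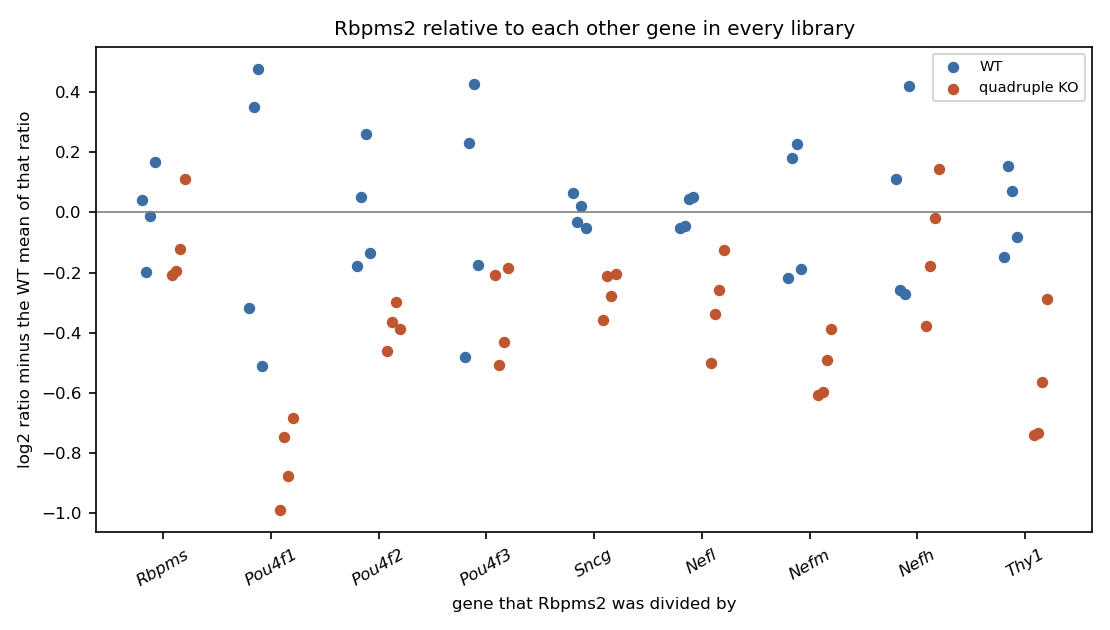
Log2 ratio of Rbpms2 to each other RGC gene (x axis) in every library, given as the difference from the mean WT ratio (y axis, log2), with WT in blue and quadruple KO in orange. The points of the genotypes are separate for Pou4f1, Pou4f2, Sncg, Nefl, Nefm and Thy1, and overlap for Rbpms, Pou4f3 and Nefh.

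Levels were compared between genes per kb of the canonical transcript in WT. In order, Nefl had 4825 ± 266 normalized counts per kb, Thy1 2227 ± 255, Nefm 883 ± 138, Nefh 797 ± 197, Sncg 426 ± 24.5, Rbpms 344 ± 35.9, Rbpms2 295 ± 19.7, Pou4f1 176 ± 55.9, Pou4f2 119 ± 13.6 and Pou4f3 53.6 ± 14.8 (SD, n = 4 each). Nefm and Nefh, and Pou4f1 and Pou4f2, were within the sum of their SDs of each other, and so were Rbpms and Rbpms2. The place of Sncg depends on the annotation, since only 0.369 kb of its canonical transcript of 4.64 kb is coding, and per kb of coding sequence it would follow Nefl and Thy1 with 5368 normalized counts per kb. In the quadruple KO, Rbpms2 had 206 ± 33.7 counts per kb and Pou4f1 207 ± 23.3, a difference within their SDs.

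The genes lie on 5 chromosomes, with Pou4f1, Sncg, Nefl and Nefm on chromosome 14, Rbpms and Pou4f2 on chromosome 8, Rbpms2 and Thy1 on chromosome 9, and Nefh and Pou4f3 alone. Rbpms and Pou4f2 share their chromosome with the targeted gene Ncan, at distances of 36.1 Mb and 8.59 Mb. For Rbpms2 the nearest gene called between the genotypes was Armc8 at 33.8 Mb. A called gene within 1 Mb was found for Nefh, with Zmat5 at 0.200 Mb.

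The genes with the pattern most like that of Rbpms2 were sought by the root-mean-square distance of the log2 values, each gene centred on its own mean over the 8 libraries. The 5 nearest of the 17635 other genes were Hcrtr1 (an orexin receptor; distance 0.09), RP23-48M16.13, Pakap, Lrp2 (an endocytic receptor of the lipoprotein receptor family; 0.13) and Calb2 (calretinin, a calcium-binding protein of amacrine cells and RGCs; 0.13). Hcrtr1 and RP23-48M16.13 had low levels, with means of 37.6 and 18.1 normalized counts in WT. Lrp2 had 908, 817, 996 and 869 normalized counts in WT A to WT D and 582, 541, 583 and 727 in KO A to KO D, and Calb2 had 8294, 7911, 9829 and 7384 against 5738, 6367, 6930 and 7057. In both, all quadruple KO libraries lay below all WT libraries, as in 3.58% of all genes tested. Lrp2 and Calb2 were picked for a pattern like that of Rbpms2, which has this order itself, so it is no separate result. Of the RGC genes, Rbpms was the 9th nearest gene (distance 0.14), Sncg the 11th (0.14) and Nefl the 52nd (0.18), whereas Thy1 ranked 5535 and Pou4f1 13734.

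Of 24 other genes of RGCs, none was called. At an unadjusted limma p under 0.05 none was higher (9.29% of all genes tested) and 5 were lower (7.28%). They were Slc17a6, the vesicular glutamate transporter of RGCs (log2 fold change -0.34), Uchl1, an abundant neuronal deubiquitinase (-0.51), Nell2, a secreted glycoprotein (-0.24), Chrnb3, a nicotinic receptor subunit (-0.30), and Ebf1, a transcription factor (-0.25). In Uchl1 and Ebf1 all quadruple KO libraries lay below all WT libraries, as in 3.58% of all genes tested. Against WT A and WT D their log2 fold changes were -0.25 and -0.16, each at an unadjusted limma p under 0.05. Those of Slc17a6, Nell2 and Chrnb3 were -0.15, -0.09 and -0.09 in that comparison, without a limma p under 0.05, and WT B and WT C were the highest libraries in all 3 genes. The median over the 24 genes was -0.11 over all libraries and -0.09 against WT A and WT D. Over all libraries 15 of the 24 were below 0 (50% of all genes tested), and against WT A and WT D 20 were (46.5%). Among them the sodium channel genes Scn1a and Scn2a had log2 fold changes of 0.04 and 0.07 against all WT libraries and -0.20 and -0.28 against WT A and WT D.

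Of 20 genes of RGC subtypes, none was called and 3 were lower at an unadjusted limma p under 0.05 (7.28% of all genes tested). Eomes and Tbx20, transcription factors found with the intrinsically photosensitive RGCs, had log2 fold changes of -0.24 and -0.43, and Pvalb, the calcium-binding protein parvalbumin, one of -0.41. Against WT A and WT D alone these were -0.18, -0.35 and -0.19. Of the 3 genes Tbx20 alone kept an unadjusted limma p under 0.05. Of the 20 genes, 3 were lower and 2 were higher at this threshold in that comparison. Over all 17636 genes tested, 5.79% were lower and 1028 genes were higher in this way. The lower ones were Tbx20, Satb1 (log2 fold change -0.30) and Kcnip2 (-0.26). The higher ones were Mmp17 and Jam2, with log2 fold changes of 0.26 and 0.25. The genotypes did not overlap in Tbx20, with 147 to 223 normalized counts in WT and 113 to 143 in the quadruple KO. Opn4, which codes for melanopsin, had a log2 fold change of -0.19 and did not pass this threshold. The median of the 20 genes was -0.15 over all libraries and -0.08 against WT A and WT D.

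Of 10 other intermediate filament genes, Nes, which codes for nestin and is found in neural progenitors and glia rather than in RGCs, was the only one called. It had 231, 260, 314 and 198 normalized counts in WT A to WT D, and 113, 139, 104 and 102 in KO A to KO D, so that the genotypes were far apart (log2 fold change -1.12, limma adjusted p = 0.0201). The call was lost in 5 of the 8 fits that left out a library (WT A, WT B, KO A, KO C or KO D), with limma adjusted p from 0.0533 to 0.11, and against WT A and WT D (limma adjusted p = 0.0509). Ina, alpha-internexin, which assembles with the neurofilament subunits, had a log2 fold change of -0.27 (unadjusted limma p under 0.05) and -0.11 against WT A and WT D. The median of the 10 genes was -0.34, and -0.07 against WT A and WT D.

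**Figure D5:**
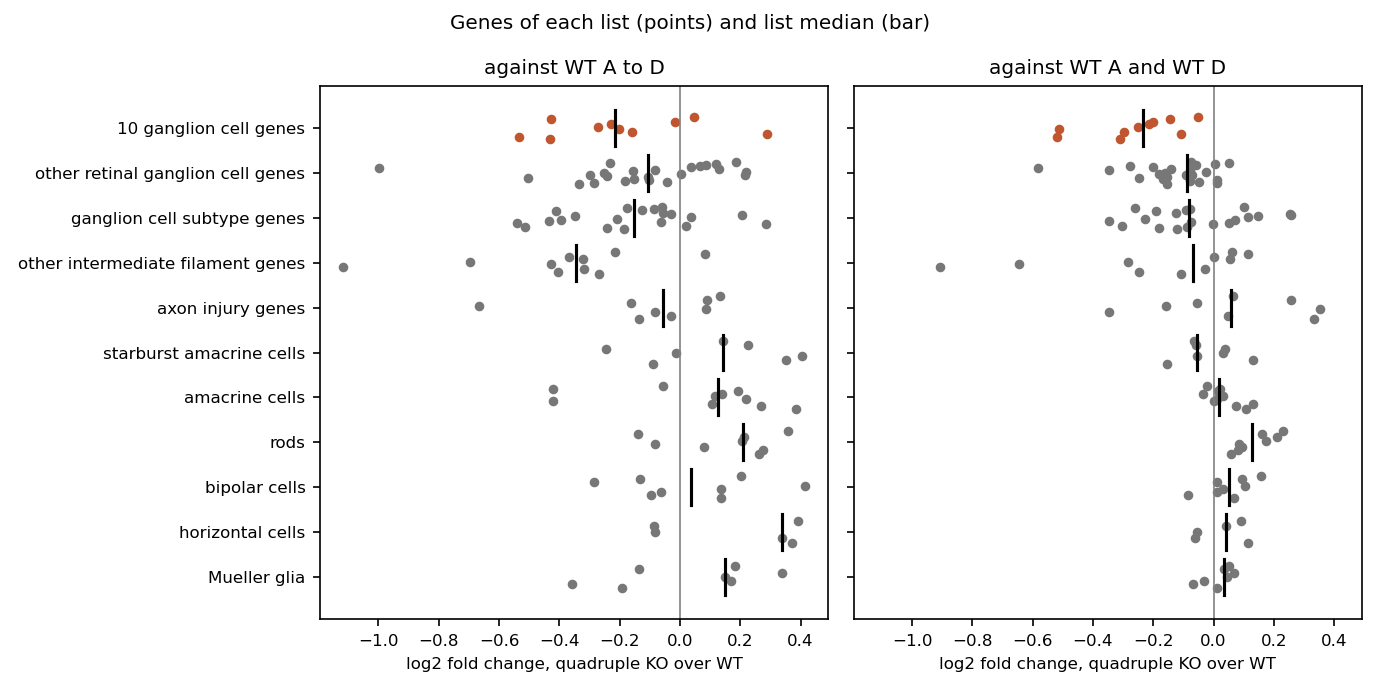
Log2 fold change of quadruple KO over WT (x axis) of the genes of each list (points) with the list median (bar), against all 4 WT libraries (left) and against WT A and WT D (right), for the 10 RGC genes (orange) and lists of related and of other retinal cell types (grey). The median of the 10 RGC genes is -0.22 and -0.23, that of rods 0.21 and 0.13, and those of amacrine, horizontal and Mueller glia genes move towards 0 on the right.

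None of the genes tested for the other retinal neurons and glia was called. Of 8 rod genes, Cnga1, Sag and Nr2e3, coding for a channel subunit, arrestin and a transcription factor of rods, were higher at an unadjusted limma p under 0.05 (log2 fold changes 0.20, 0.21 and 0.36). The values were 0.17, 0.21 and 0.23 with WT A and WT D alone. In these 3 all quadruple KO libraries lay above all WT libraries, as they did in 6.16% of all genes tested. The summed level of the 8 rod genes was 1280542 to 1701949 normalized counts in WT and 1713425 to 1850749 in the quadruple KO, also without overlap. The summed level of the 10 RGC genes was 29858 to 33644 in WT and 24750 to 29491 in the quadruple KO. Nefl was the largest part of this sum, with 15589 to 17480 in WT and 12746 to 14807 in the quadruple KO. It separated the genotypes by itself, so the sum is no separate result. Normalized counts are relative within a library, and the part of the rod RNA in the lower RGC values was not tested.

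Of 7 genes of starburst amacrine cells, the cholinergic interneurons that drive direction-selective RGCs, only Slc18a3, the vesicular acetylcholine transporter, differed at an unadjusted limma p under 0.05, with a log2 fold change of 0.35 and of 0.13 against WT A and WT D. Of 10 amacrine cell genes, the transcription factors Tfap2a and Tfap2b were higher (0.38 and 0.27, and 0.11 and 0.08 against WT A and WT D). Pcp2 and Grik1 of 8 bipolar cell genes (0.42 and 0.20), Prox1 of 5 horizontal cell genes (0.39) and Kcnj10 of 7 Mueller glia genes (0.34) were higher at that threshold and Glul, the glutamine synthetase of Mueller glia, lower (-0.36). Against WT A and WT D, those of Pcp2, Prox1, Kcnj10 and Glul were 0.10, 0.09, 0.07 and -0.07. Grik1 kept 0.16, at an unadjusted limma p under 0.05.

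Of the cells next to the neural retina, Acta2 of 8 smooth muscle and pericyte genes tested (log2 fold change -0.44) and Cnp of oligodendrocytes (-0.38) were lower at an unadjusted limma p under 0.05. These values were -0.46 and -0.28 with WT A and WT D alone, and Cnp alone kept such a p. The summed level was 1230 to 1837 normalized counts in WT and 1214 to 1699 in the quadruple KO for smooth muscle and pericytes, and 11669 to 16352 and 12260 to 12722 for 6 genes of the retinal pigment epithelium, of which Rlbp1 of Mueller glia made up most. Mog, Mobp and Rpe65 are not analysed here. The part of these cells in the RGC values was not tested.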

How the data were processed

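Per the labels and the study's methods, the authors used Trim Galore 0.6.7 for trimming, aligned the reads with STAR 2.7.9a to GRCm39, estimated gene counts with Salmon 1.5.2 and normalized them with DESeq2 1.32.0. The authors deposited 1 table of these normalized counts, and their fold changes and p-values in it were not used. Raw counts are not used here, and the steps of 1 read between low values were whole for 55% to 76.6% of them, so no count model was fitted and the depth is an estimate.

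The log2 of the normalized count plus 1 of genes with a mean of at least 10 was compared between genotypes with limma 3.58.1 (lmFit, eBayes with trend) in R 4.3.3, with Benjamini-Hochberg adjustment over 17636 genes, after a test on simulated data. Such fold changes understate those of low genes. Intervals are 95% intervals from limma. Retinae were pooled before extraction and the pools are not described further in the sources used here, so p-values measure the spread between libraries, which may be partly technical. Positions and transcripts are those of GENCODE M39 on GRCm39.

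The 10 genes and all lists were chosen with earlier results of these data known. Genes of the other lists are named where the unadjusted limma p was under 0.05 with all libraries or where they were called against WT A and WT D; for Rbpms2 the 5 nearest genes are named. Scn1a, Scn2a, Opn4, Mmp17, Jam2, Mbp, Gfap, Atf3, Gadd45a and the genes named beside a position were named after their values were seen. The alternatives were median-ratio rescaling, quantile normalization, no filter, a mean of at least 100, pseudocounts of 10 and 0.1, eBayes without trend, array weights, the letter as a block, WT A and WT D alone, and each library left out. Some genes of the lists are not reported here.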

Additional observations from a re-analysis of the deposited data

Results flagged for a closer look

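In each genotype the lowest and the highest library of the 10 RGC genes and the 23 list genes named for their p-value were compared with the other 3, in 66 groups of 4 libraries. Chance puts about 1 in 20 groups past this limit. A sample far from the others of its genotype was found in 3 groups. Nefm was at 2434 normalized counts in KO A, compared with 3013 to 3107 in the other quadruple KO libraries. Cnp was at 550 in WT D, compared with 699 to 718 in the other WT libraries. For Ebf1, WT C had 1437 and the other WT libraries 1136 to 1168.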

How the results depend on the processing

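None of the 10 RGC genes was called by limma over all genes tested in any alternative, unlike Rbpms2 in the study's own DESeq2 comparison. The log2 fold change of Rbpms2 lay between -0.61 and -0.42 in its 18 alternatives (limma p from 0.00126 to 0.00682, limma adjusted p from 0.0778 to 0.542), and between -0.60 and -0.41 in the 8 alternatives against WT A and WT D. Rbpms, Rbpms2 and Nefl had a limma p under 0.05 in all 18 alternatives, Sncg and Nefh in 14. The number of genes called was 77, and it was 143 with limma array weights, which gave WT B and WT C the lowest weights (0.164 and 0.156), and 56 to 89 with a library left out. The number of the 10 genes lower at p under 0.05 was 3 to 5 with a library left out, with 3 without WT C and 3 without KO A. The sign of Pou4f1 turned with array weights (-0.014) and against WT A and WT D (-0.11). That of Thy1 turned with array weights (-0.052), against WT A and WT D (-0.052) and without WT B, with -0.039 to 0.11 over the fits that left out a library. That of Nefm turned with quantile normalization (0.0044) and without WT A, WT D or KO A, with -0.11 to 0.068 over these fits.

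With the letter as a replicate block 51 genes were called, none of them an RGC gene, and Nes was lost (limma adjusted p = 0.0983). The letters did not pair the libraries, since the correlations of the deviations of same-lettered libraries were -0.01, -0.11, 0.10 and 0.05 and only C correlated best with its own letter. Estimated read numbers limit Pou4f3 most, with as few as 61.0 reads in a library, and 4 libraries per genotype limit all genes.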

Other observations

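Of 8 tested genes that RGCs induce after axon injury, none was called and none had an unadjusted limma p under 0.05 against all WT libraries, with a median log2 fold change of -0.06 and of 0.06 against WT A and WT D. In the latter comparison 2 of the 8, Atf3 and Gadd45a, were higher at an unadjusted limma p under 0.05, and none was lower. Of the 17636 genes tested, 1028 were higher in this way. Log2 fold changes were below 0 in 3 of the 8, Sox11, Gal and Ddit3 (46.5% of all genes tested). Atf3, a transcription factor of injured neurons, was at 126 and 128 normalized counts in WT A and WT D and at 145 to 182 in the quadruple KO. Gadd45a, a stress-response gene, was at 686 and 669 against 760 to 916. In WT B and WT C, Atf3 was at 252 and 239 and Gadd45a at 798 and 918, so both genes overlapped between the genotypes when all WT libraries were used.

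The summed level of 5 lens genes was 83.0 to 2828 normalized counts in WT and 34.9 to 1890 in the quadruple KO, with the highest values in WT B and KO C. The genes of T cells and leukocytes that were tested, Ptprc and Lck, summed to 14.5 to 29.3 normalized counts in WT and 23.7 to 45.8 in the quadruple KO.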
